A study of Rattus norvegicus with 547 samples.

Results

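Ethionine was tested at 3 concentrations in cultivated hepatocytes of male Wistar rats, and the arrays labelled ETH were taken, each treated group with the solvent controls of its own level. This gave 18 of the 547 arrays of the series, 9 treated and 9 control. The hepatocytes were kept as sandwich cultures in dishes of 6 wells, of which 3 wells received the compound and the other wells the solvent, and RNA was collected after 24 h. The high level was 100 µM, the middle level 33.3 µM and the low level 11.1 µM, and each had 3 treated and 3 control arrays. All groups shared the strain, the sex and the culture, and no group carried a genetic change. The control arrays carry the level of the dish they came from, not a dose of their own. The 3 replicates were cells of separate rats, isolated on separate days per the series' design text, and a treated array and the control array of the same number were taken as 1 dish. Whether dishes of different levels held cells of the same rat was not tested, so the 9 dishes need not stand for 9 rats. Effects that need other liver cells, or longer dosing, are outside what such cultures can show.

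Ethionine is the ethyl analogue of the amino acid methionine, with an ethyl group where methionine carries a methyl group on the sulphur. Methionine adenosyltransferase, which makes the methyl donor S-adenosylmethionine from methionine and ATP, also accepts ethionine and makes S-adenosylethionine. This product is turned over slowly, so that it traps adenosine and lowers hepatic ATP, and it disturbs methylation and the synthesis of RNA and protein. Given to rats, ethionine causes fatty liver and, on long feeding, liver tumours, and with a choline-deficient diet it is a classic means of eliciting oval cells, the progenitor-like cells of the injured liver. The submitters' table places it among the non-genotoxic carcinogens (class NG).

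The values were log2 expression levels of 31042 probe sets. No source used here pairs the probe sets with genes, so they are given by ID, at most 2 in each direction for a comparison. Lists of genes for methionine metabolism, the amino acid response, lipid synthesis and similar processes were therefore not applied, and the hepatocyte label could not be set against marker genes. The exceptions are the array's own control probe sets for beta-actin, GAPDH and hexokinase. Beta-actin, a cytoskeletal protein, had a treated minus control difference of 0.03 ± 0.12 (log2, SD, n = 3) at 100 µM, 0.06 ± 0.08 at 33.3 µM and 0.13 ± 0.25 at 11.1 µM. GAPDH, an enzyme of glycolysis, differed by -0.05 ± 0.03, -0.01 ± 0.09 and 0.12 ± 0.16. Hexokinase, which phosphorylates glucose, differed by -0.12 ± 0.18, 0.08 ± 0.12 and -0.06 ± 0.06. For all 3 genes the differences were small beside the distance of a 2-fold change, which is 1 on this scale. Hexokinase was dim, with control means of 4.4, 4.27 and 4.46 from the high to the low level. These are under the limit of 5 used below for naming probe sets, so its small differences say little.

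Several of the 18 arrays stood apart. The treated array of dish 3 at 100 µM had a median of 5.24, below the limit of 5.4 that separates 2 groups of arrays in the series, while the control of the same dish had 5.42. This array correlated with the other 17 at a median r of 0.943 across probe sets, and best with the treated array of dish 1 at 33.3 µM (r = 0.98), which with its own control was also under the limit (medians 5.25 and 5.27). The dish at 100 µM thus paired arrays of both groups, and the dish at 33.3 µM did not. At 11.1 µM the controls of dishes 1 and 2 had higher bioC hybridization controls (means of 11.6 and 11.1) than the other 16 arrays, which lay between 9.25 and 10.6. Results at 100 µM are therefore also given after quantile normalization and without dish 3.

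Within most dishes ethionine and solvent gave close profiles. Across all probe sets the SD of the treated minus control differences was 0.219 and 0.247 (log2) in dishes 1 and 2 at 100 µM, and 0.642 in dish 3. At 33.3 µM it was 0.279, 0.231 and 0.266, and at 11.1 µM it was 0.353, 0.28 and 0.248. Among the 256 dishes of the series this SD ran from 0.171 to 1.98 with a median of 0.287, and dish 3 at 100 µM ranked 6 from the top. In that dish 3529 probe sets (11.4%) differed by 2-fold or more, against 18 to 295 in the other 8 ethionine dishes. Quantile normalization left its SD at 0.546, still more than in any other ethionine dish. The part of the array difference in the results of this dish cannot be told apart from that of the compound.

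**Figure D1:**
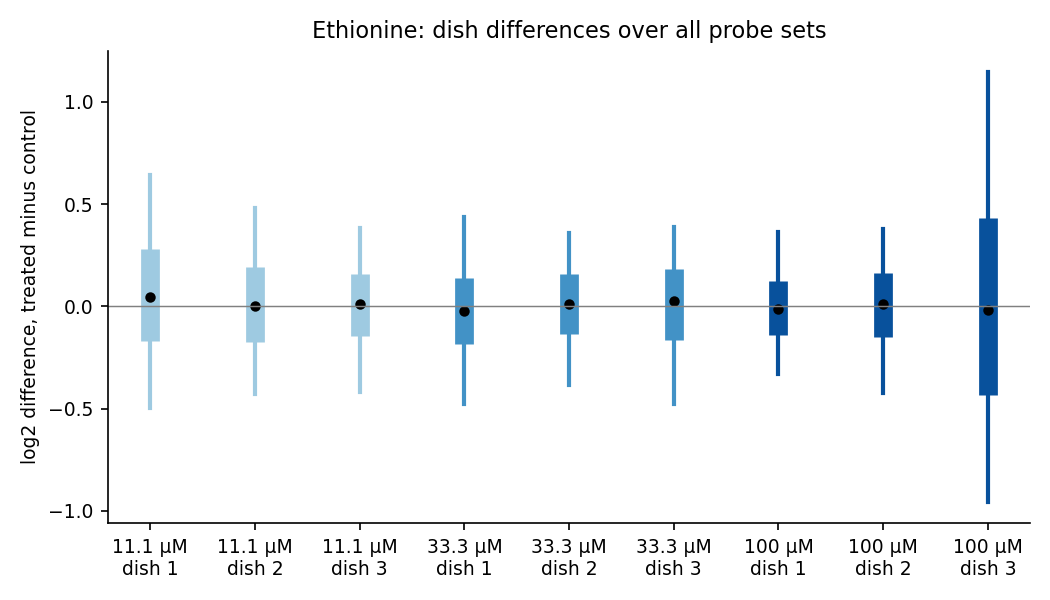
Treated minus control differences (log2, vertical axis) over 31042 probe sets in each ethionine dish, ordered by concentration. Thin lines span the 5th to the 95th percentile, thick lines the quartiles and points the median. Dish 3 at 100 µM, with an SD of 0.642, is wider than the other dishes, whose SDs lie between 0.219 and 0.353.

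The first comparison asked what each concentration changed against its own controls. No probe set passed the test at any level. In limma fitted to the 9 dish differences, 0 of 31042 probe sets (0%) had a Benjamini-Hochberg adjusted p under 0.05 at 100 µM, at 33.3 µM or at 11.1 µM, and 0 (0%) in the mean of the 3 levels. The smallest adjusted p was 0.0914 at 100 µM, 0.972 at 33.3 µM, 0.962 at 11.1 µM and 0.114 for the mean of levels. At an unadjusted p under 0.05 there were 2757 probe sets (8.88%) at 100 µM, 1085 (3.5%) at 33.3 µM and 1409 (4.54%) at 11.1 µM, where 1552.1 would be found by chance if no probe set differed. In this fit only 100 µM exceeded that number. Without dish 3 at 100 µM the numbers were 1261, 2802 and 3285 from the high to the low level. In that fit 100 µM was the only level below the number found by chance. The levels share 1 estimate of the spread, so leaving out that dish changed the numbers at all levels. With each level fitted alone on its 3 dishes, limma called 0 at each level. At an unadjusted p under 0.05 there were then 678 at 100 µM, 3952 at 33.3 µM and 1936 at 11.1 µM. The excess over the number found by chance at 100 µM thus depends on the shared estimate and on dish 3. The difference between 100 µM and 11.1 µM, tested in the limma fit to all 9 dishes, gave 0 calls, 1069 probe sets with an unadjusted p under 0.05 and a smallest adjusted p of 0.983. The fit without the replicate block, in which treated and control arrays form separate groups, likewise gave 0 in each of these comparisons, with 868, 444 and 584 unadjusted at the 3 levels from high to low.

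How far the arrays bound the response can be read from the intervals. The median SE of a log2 fold change was 0.16 at each level and the median 95% interval reached 0.35 to either side. These are equal because the levels share 1 estimate of the spread. With the wider dish 3 at 100 µM, a shared estimate can understate the spread at that level and overstate it at the others. Without that dish the median SE was 0.16 at 100 µM and 0.13 at each lower level. At 33.3 µM the 95% interval lay within a 2-fold change in either direction for 99% of the probe sets, at 11.1 µM for 99.2% and at 100 µM for 96.2%. Without dish 3 the share at 100 µM was 99.4%. Estimated changes of 2-fold or more were accordingly few. At 100 µM 33 probe sets were at least 2-fold higher and 6 at least 2-fold lower, and without dish 3 these numbers were 2 and 9. At 33.3 µM there was 1 higher and 2 lower, and at 11.1 µM none higher and 4 lower.

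Only 2 probe sets (0.00644%) differed by 2-fold or more in the same direction in all 3 dishes at 100 µM, and none did at the lower levels. Both were higher with ethionine. The first was 1371350_at. Its log2 levels at 100 µM were 7.49, 7.95 and 7.64 in the controls and 8.81, 8.96 and 9.77 with ethionine, in the order of dishes 1 to 3. All treated arrays lay above all controls, which 4.52% of the probe sets did at this level. The log2 fold change was 1.49 ± 0.20 (SE, n = 3 dishes, limma adjusted p 0.0914), and after quantile normalization it was 1.39 with a limma adjusted p of 0.0248. The SEs of single levels, here and below, use the spread shared by all 9 dishes. They do not give the spread of the 3 dishes at that level. With each level fitted alone, the limma adjusted p of this probe set at 100 µM was 0.953. At 33.3 µM the controls had 8.02, 7.64 and 7.53 and the treated arrays 8.67, 8.41 and 8.44, again without overlap, for a log2 fold change of 0.77. At 11.1 µM the dish differences were 0.07, 0.27 and 0.79, and the groups overlapped. The difference was thus above 0 in all 9 dishes, as it was for 149 of all probe sets, and its mean over the levels was 0.88 ± 0.11 (limma adjusted p 0.114). With dish 3 at 100 µM left out, the log2 fold change at 100 µM was 1.16 (limma adjusted p 0.0595), and the mean of levels passed the test for this probe set (0.77 ± 0.09, limma adjusted p 0.0135).

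The second was 1368658_at, singled out here for its size because its mean level over the 18 arrays, 4.93, is under the limit of 5 used for naming probe sets. At 100 µM the controls had 4.28, 4.53 and 4.24 and the treated arrays 6.17, 5.60 and 7.56. The groups were apart, and dish 3 gave the largest difference, 3.32 against 1.89 and 1.06 in dishes 1 and 2. The log2 fold change was 2.09 ± 0.29 (SE, limma adjusted p 0.0914), and 1.95 ± 0.25 after quantile normalization (limma adjusted p 0.0345). Without dish 3 it was 1.48, which passed the test in the deposited values (limma adjusted p 0.041) and was 1.49 with a limma adjusted p of 0.0517 after quantile normalization. The dish differences at 33.3 µM were 0.70, 0.86 and 0.71, and at 11.1 µM they were -0.08, 0.50 and 0.35. Its level was 4.47 ± 0.67 (SD, n = 34) in cells taken at the start of incubation and 4.27 ± 0.57 (SD, n = 247) in the controls of the other compounds, and the 3 controls at 100 µM lay within these spreads.

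On the lower side, 1372440_at and 1380875_at led at 100 µM by their p-values. The levels of 1372440_at were 7.07, 6.96 and 6.78 in the controls and 5.71, 5.70 and 6.16 with ethionine. All treated arrays were below all controls, which 3.17% of the probe sets were at this level. Its log2 fold change was -1.08 ± 0.16 (SE, n = 3 dishes, limma adjusted p 0.111), and -1.16 after quantile normalization (limma adjusted p 0.0463). Here dish 3 showed the smallest difference, -0.62 against -1.35 and -1.26, and without that dish the probe set passed the test (-1.31, limma adjusted p 0.0307). At 33.3 µM the 3 dishes gave -0.33, -0.26 and -0.66, and at 11.1 µM -0.14, 0.26 and -0.17, with overlapping groups at both. The levels of 1380875_at at 100 µM were 6.87, 6.85 and 6.96 in the controls and 6.20, 5.90 and 5.92 with ethionine, also without overlap. The dish differences of -0.67, -0.96 and -1.04 gave a log2 fold change of -0.89 ± 0.14 (SE, limma adjusted p 0.111), and -0.93 after quantile normalization (limma adjusted p 0.0463). Without dish 3 it was -0.81 (limma adjusted p 0.21). At 33.3 µM it was -0.26, -0.16 and -0.53 in the dishes, below 0 in each, and at 11.1 µM it was -0.04, 0.15 and -0.26.

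**Figure D2:**
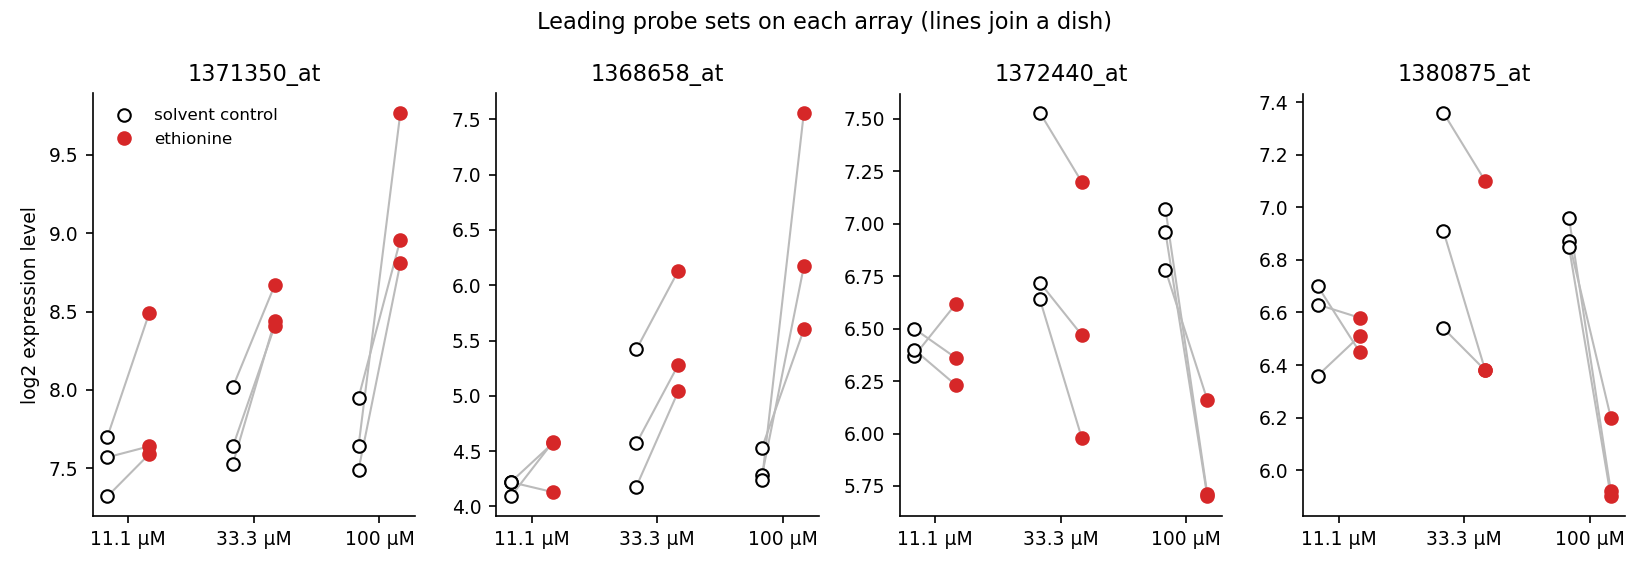
Log2 expression levels (vertical axes, each with its own range) of 4 probe sets on the 18 arrays by ethionine concentration. Open points are solvent controls, red points ethionine, and grey lines join the arrays of a dish. At 100 µM the treated and control points do not overlap in any of the 4 panels, and at 11.1 µM they overlap in all 4.

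The part of dish 3 can be followed over the leading probe sets at 100 µM. The 10 leading probe sets on the higher side, taken with a mean level of at least 5 and the same direction in every dish, had log2 fold changes of 0.74 to 1.49 and limma adjusted p-values of 0.0914 to 0.2. In all 10 the difference was largest in dish 3. The 10 leading ones on the lower side had log2 fold changes of -1.18 to -0.66 and adjusted p-values of 0.111 to 0.232, and dish 3 was the largest in 2 of them. Whether the directions differ in this respect was not tested.

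After quantile normalization of the 18 arrays, limma called 9 probe sets (0.029%) at 100 µM, 4 that rose and 5 that fell, with a smallest adjusted p of 0.0248. Without dish 3 at 100 µM, quantile normalization left 1 call (0.00322%), the fall of 1372440_at (limma adjusted p 0.0463). With all 9 dishes it called 0 at 33.3 µM, 0 at 11.1 µM and 0 in the mean of levels. The 9 were followed at the lower concentrations. Those dishes gave no part of the estimated change at 100 µM, but they entered the estimate of the spread by which the 9 were called, so the shares of all probe sets given beside the counts are not a matched reference. In the deposited values all 4 that rose were above 0 in every dish at 33.3 µM, where 18.3% of all probe sets were, and all 5 that fell were below 0 in every dish, where 18.7% were. At 11.1 µM 2 of the 4 were above 0 in every dish (15.6% of all) and 0 of the 5 below (12.1% of all). The median log2 fold change of the 4 went from 0.25 at 11.1 µM to 0.5 at 33.3 µM and 1.29 at 100 µM, and that of the 5 from 0.01 to -0.41 and -0.9. Their means were ordered by concentration in 3 of the 4 and in all 5, where 10.5% of all probe sets rose and 13.1% fell in that order. The step to 100 µM is fixed in part by how the 9 were chosen. Quantile-normalized values gave the same direction in every dish at 33.3 µM for 4 of 4 and 4 of 5, and at 11.1 µM for 0 of 4 and 0 of 5.

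**Figure D3:**
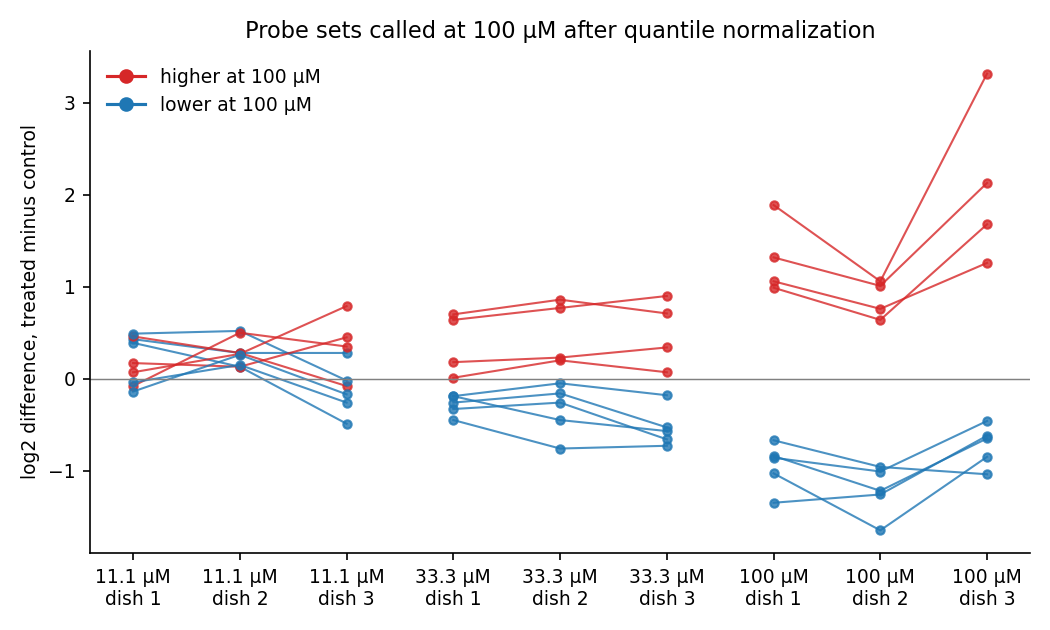
Treated minus control differences (log2, deposited values, vertical axis) in each ethionine dish for the 9 probe sets called at 100 µM after quantile normalization. Each line is a probe set within a concentration, red for the 4 that were higher and blue for the 5 that were lower at 100 µM. Without dish 3 at 100 µM 1 of the 9 was called. At 33.3 µM all red points lie above 0 and all blue points below it, and at 11.1 µM the colours mix.

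With the spread estimated over the dishes of all 29 compounds instead of the 9 ethionine dishes, limma called 347 probe sets (1.12%) at 100 µM, 252 higher and 95 lower. Without dish 3 at 100 µM the same fit called 14 (0.0451%), 3 higher and 11 lower, and 12 of these were also among the 347 in the same direction. Of the 14, the dish left out had the same direction in 3 of 3 and 7 of 11, where 49% of all probe sets were above 0 and 51% below 0 in it. At 33.3 µM the 3 were above 0 in every dish and 10 of the 11 were below 0. Of the 347, by contrast, 79 of 252 and 27 of 95 kept their direction in every dish at 33.3 µM, against the 18.3% and 18.7% given above. The mean of levels gave 82 calls (0.264%) with dish 3 and 14 without it, 13 of them shared. With the difference in array medians as a covariate, limma called 12 (0.0387%) at 100 µM, 7 higher and 5 lower, and 26 in the mean of levels.

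Agreement in direction between dishes was also counted, and the counts were not tested against chance. The same direction in all 3 dishes was seen for 22.7% of the probe sets at 100 µM, 37% at 33.3 µM and 27.7% at 11.1 µM. In all 9 dishes 149 probe sets were above 0 and 35 below 0, together 0.593%. In the mean of levels 1371350_at led on the higher side, and 1390068_at came with 0.46 ± 0.07 (SE, limma adjusted p 0.315). The dish differences of 1390068_at were 0.78, 0.75 and 0.96 at 100 µM, 0.38, 0.23 and 0.29 at 33.3 µM, and 0.33, 0.07 and 0.37 at 11.1 µM. It was thus above 0 in every dish, and at 100 µM its treated arrays lay above all controls. On the lower side 1382206_a_at had -0.35 ± 0.07 (limma adjusted p 0.368), with dish differences of -0.45, -0.40 and -0.67, then -0.38, -0.33 and -0.46, then -0.17, -0.07 and -0.20 from the high to the low level. The other, 1391481_at, had -0.53 ± 0.12 (limma adjusted p 0.492), and its controls at 100 µM spread from 5.23 to 9.46. The high value was that of dish 3, whose treated array had 8.11. Dish 3 at 33.3 µM was high as well, with 9.81 in the control and 9.14 with ethionine. A level shared by both arrays of a dish drops out of the dish difference.

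At 11.1 µM the 2 largest estimates were those of probe sets that were high in the controls of dishes 1 and 2. The probe set 1381787_at, singled out for its size, had control levels of 11.63, 6.89 and 4.46 and treated levels of 4.67, 4.73 and 4.80 at this concentration. The treated arrays were alike and the controls of dishes 1 and 2 were high, whereas the controls of the other compounds had 4.59 ± 0.42 (SD, n = 247). The log2 fold change was -2.93 ± 0.92 (SE, limma adjusted p 0.962), and -0.91 without replicate 1. The probe set 1391532_at, singled out likewise, had control levels of 11.71, 10.86 and 9.17 against treated levels of 9.24, 9.19 and 9.30, and 9.16 ± 0.56 (SD, n = 247) in the other controls. The controls of dishes 1 and 2 were the arrays with the high bioC signals, and the part of that difference in the result was not tested. Both probe sets were also high in the treated array of dish 3 at 33.3 µM. There 1381787_at had 7.17 against 4.58 in the control, and 1391532_at 10.64 against 9.12. The bioC mean of that treated array was 10.3, not among the high ones. With the spread pooled over all compounds 26 probe sets (0.0838%) were called at 11.1 µM, 2 higher and 24 lower. With replicate 3 left out 1104 were called (3.56%), 865 higher and 239 lower, from dishes 1 and 2 alone. At 33.3 µM, by comparison, neither setting called any.

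The second comparison set ethionine at 100 µM against the other 28 compounds at their highest concentrations, with 1 value for each compound. Ethionine was among the compounds with the fewest changes. Limma fitted to each compound in the same way gave the other 28 a median of 829.5 calls and a highest of 13297, with 13 above 1000 and 5 at 0, as ethionine was. Of the 26 compounds with 3 dishes at the high level, ethionine included, 21 had more than its 2 probe sets at 2-fold or more in every dish and 3 had fewer. The median was 70.5 and the highest 578. At 33.3 µM its 0 compared with a median of 5 over the middle levels of 29 compounds. Concentrations differ between compounds, so these numbers describe the cultures as dosed and do not rank the compounds. Calls also depend on the spread between the dishes of a compound. Acetaminophen, for example, had 1 call but 520 probe sets at 2-fold or more in every dish.

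A test of ethionine's value against those of the other 28 called 0 probe sets (0%) in limma, with 1259 at an unadjusted p under 0.05 and a smallest adjusted p of 0.85. The 1259 are fewer than the 1552.1 found by chance if no probe set differed. Without dish 2 at 100 µM the test called 40 (0.129%), 17 higher and 23 lower. Without dish 1 and without dish 3 it called 0, with 3516 and 214 at an unadjusted p under 0.05. Dish 3 made up more of the mean without dish 2, and equally so without dish 1. Its part in the 40 calls was not tested. Quantile normalization, the mean over all levels of each compound, and the 10 other compounds of class NG in place of the 28 each gave 0. The log2 fold change of 1371350_at, 1.49, was above those of all 28 others, which ran from -1.2 with acetaminophen to 0.99 with clonidine around a median of 0.15, and 3 of them were called higher. That of 1368658_at, 2.09, was above a range of -0.60 with allyl alcohol to 1.25 with cefuroxime (median 0.08), among which 5 were called higher and 1 lower. Its difference from the other compounds was 1.93 ± 0.43 (SE, limma adjusted p 1).

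For 1367601_at ethionine went the other way from most compounds. At 100 µM the controls had 10.34, 10.61 and 9.62 and the treated arrays 11.41, 11.37 and 10.88, with all treated arrays above all controls. The dish differences were 1.06, 0.76 and 1.26, and the log2 fold change was 1.03 ± 0.14 (SE, limma adjusted p 0.0914, and 0.0248 after quantile normalization). Without dish 3 it was 0.91 (limma adjusted p 0.125). The other 28 compounds ran from -1.63 with Wy-14643 to 0.48 with dehydroepiandrosterone around a median of -0.56. In 11 of them the probe set was called lower and in 0 higher. The 33.3 µM dishes gave 0.18, 0.23 and 0.34, and the 11.1 µM dishes 0.46, 0.28 and -0.08, with overlapping groups at both.

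On the lower side 1380875_at, at -0.89, was below all 28 others, which lay between -0.83 with acetaminophen and 0.39 with ibuprofen (median -0.03). Only 1 of them had it called, on the lower side. From dishes 1 and 2 alone its mean was -0.81, just inside that range. Acetaminophen alone set that end of the range, as the next lowest value was -0.38 with methylendianiline. The arrays of the other compounds were not checked singly and none was left out for its quality. A single acetaminophen array of poor quality could therefore weigh on that value. By contrast 1372440_at, at -1.08, was well inside the range of the others (-1.88 to 1.86), and 11 of them had it called lower and 2 higher.

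A place beyond all other compounds is not rare in these data. The mean at 100 µM was above that of every other compound for 792 probe sets (2.55%) and below it for 1488 (4.79%), and from dishes 1 and 2 alone for 199 (0.641%) and 332 (1.07%). Of the 10 leading probe sets on the higher side at 100 µM, 7 were above every other compound, and 6 were so from dishes 1 and 2. Of the 10 on the lower side 1 was below every other compound, and 0 were from dishes 1 and 2. The 20 had been ranked on the same values, so this is given as a description.

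**Figure D4:**
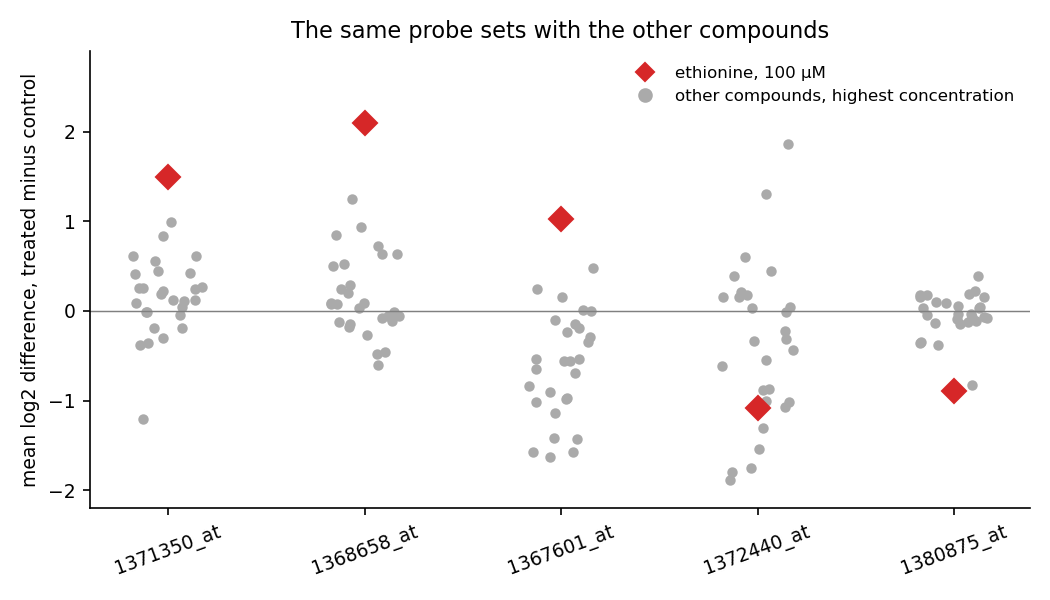
Mean treated minus control difference (log2, vertical axis) of 5 probe sets in ethionine at 100 µM (red diamonds) and in the other 28 compounds at their highest concentrations (grey points, spread sideways for visibility). Ethionine is above all others for 1371350_at, 1368658_at and 1367601_at, below all others for 1380875_at and within their range for 1372440_at.

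Probe sets that many other compounds move were followed with ethionine. In the deposited values none of them was called, as none of all 31042 was. They were taken from the calls of the other 28 compounds, each against its own controls, so that no ethionine array entered the choice. The 422 probe sets called higher in at least 5 of the others had a median log2 fold change of 0.14 at 100 µM, -0.15 at 33.3 µM and 0.13 at 11.1 µM, against -0.02, 0 and 0.02 over all probe sets. After quantile normalization the 3 medians were 0.06, -0.06 and 0.03. At 100 µM the dish medians were -0.01, -0.18 and 0.55, so the positive median came from dish 3. The 1568 probe sets called lower in at least 5 others had medians of 0.12, -0.12 and 0.18, and of 0.03, -0.04 and 0.08 after quantile normalization. Of the 9 probe sets (0.029% of all) called at 100 µM after quantile normalization, 2 were among the 422 and 3 among the 1568. Both lists sat on the same side of 0 at each level whatever their direction in the other compounds, and their mean levels (7.89 and 7.73) were above that of all probe sets (5.74). At an unadjusted p under 0.05 the raised list held 67 probe sets (15.9%) at 100 µM, 53 above and 14 below 0, and the lowered list 276 (17.6%), 214 above and 62 below 0, against 8.88% of all probe sets. Of the raised list 69.7% were above 0 at 100 µM and of the lowered list 68.8%, against 46.8% of all. Without dish 3 these shares above 0 were 35.3%, 47.9% and 51%, and the shares at an unadjusted p under 0.05 were 13.3%, 10.2% and 4.06%. The part of signal level in these values was not tested.

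For the most widely shared probe sets the values of single dishes are given. The probe set 1385016_at, called lower in 18 of the other compounds, had dish differences of 0.12, 0.12 and 0.69 at 100 µM and a log2 fold change of 0.31 ± 0.22 (SE, limma adjusted p 0.643). Over the 9 ethionine dishes it ran from -0.67 to 0.69. The probe set 1387599_a_at, called higher in 14 of the others, had 0.10, -0.09 and 0.43 at 100 µM and a log2 fold change of 0.15 ± 0.14 (limma adjusted p 0.726), and its dishes ran from -0.29 to 0.50. Neither was called in the opposite direction by any other compound.

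**Figure D5:**
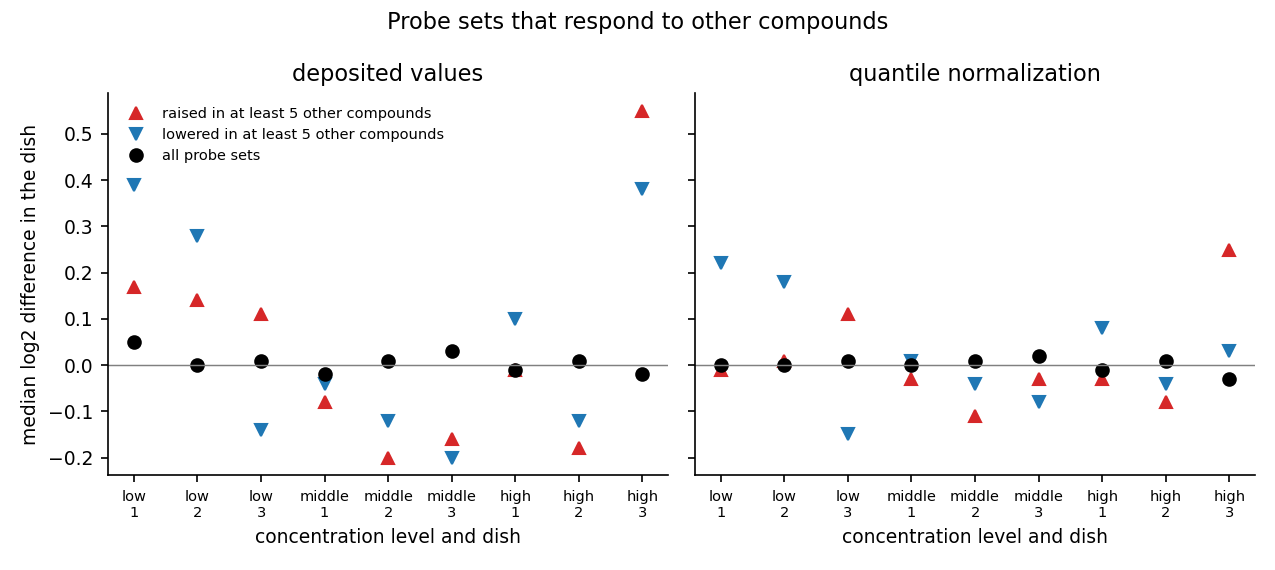
Median log2 difference (vertical axis) in each ethionine dish of the 422 probe sets raised (red triangles) and the 1568 lowered (blue triangles) in at least 5 other compounds, and of all probe sets (black points), for the deposited values (left) and after quantile normalization (right). The highest points in the deposited values are those of the raised list in dish 3 of the high level (0.55) and of the lowered list in dish 1 of the low level (0.39), and the medians of both lists at each level are closer to 0 after quantile normalization.

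Over the 31042 probe sets the profile of ethionine at 100 µM correlated with those of the other compounds at Pearson's r between -0.44 (N-nitrosomorpholine) and 0.38 (N-nitrosopiperidine). From dishes 1 and 2 alone the range was -0.17 (N-nitrosopiperidine) to 0.2 (acetaminophen), so that the sign for N-nitrosopiperidine turned. Probe sets are not independent of each other, and dish 3 pairs arrays that differ in their signal distribution.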

How the data were processed

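The authors deposited log2 expression values, 1 per probe set and array. Per the submitters' processing notes RMA was used; its version is not given in the sources used here. From these values 57 control probe sets were left out, leaving 31042. R 4.3.3 and limma 3.58.1 (lmFit, eBayes) were fitted to treated minus control differences within dishes, all 3 levels in 1 fit (6 residual degrees of freedom), with Benjamini-Hochberg adjustment over all probe sets and calls at an adjusted p under 0.05. The replicate number stands for the dish per the design text. Same-numbered arrays deviated together with a mean r of 0.396 (from -0.0572 to 0.824), different numbers with -0.17, and 6 of 9 pairs exceeded 0.1. At 100 µM the pairs had 0.423, 0.392 and 0.548, at 33.3 µM 0.824, 0.724 and 0.744, and at 11.1 µM -0.0135, -0.0226 and -0.0572. For the comparison with other compounds each compound gave 1 value, its mean dish difference at its highest level. Named probe sets were the called ones or, where none were called, the leading ones by p with a mean of at least 5 and 1 direction in every dish, with those said to be singled out added. The 22 gene lists and 5 marker lists that were drawn up could not be applied without gene names. The members, lists and comparisons were chosen with earlier results of these data known. Alternatives were quantile normalization, no replicate block, a replicate block across levels, a filter on dim probe sets (18344 kept), other variance models, a covariate for array medians, and left-out dishes. The fit was tested on simulated data. Array number limits the precision of every value.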

Additional observations from a re-analysis of the deposited data

Results flagged for a closer look

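The 422 probe sets raised in at least 5 other compounds had a median difference below 0 in every dish at 33.3 µM and above 0 in every dish at 11.1 µM, which is why the pair of levels is listed here. The medians of the level effects were -0.15 and 0.13, and the medians of the dish medians -0.15 and 0.14. The dishes gave -0.08, -0.2 and -0.16 at 33.3 µM and 0.17, 0.14 and 0.11 at 11.1 µM. The difference between the levels was not tested. After quantile normalization the level medians were -0.06 and 0.03, and the dishes gave -0.03, -0.11 and -0.03 at 33.3 µM and -0.01, 0.01 and 0.11 at 11.1 µM, so that the dishes at 11.1 µM no longer shared a sign.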

How the results depend on the processing

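Counts of called probe sets in the deposited values were 0 in every comparison, and the following settings gave others. Quantile normalization gave 9 at 100 µM. The spread pooled over all compounds gave 347 at 100 µM, 26 at 11.1 µM, 82 in the mean of levels and 14 for 100 against 11.1 µM. The array median as a covariate gave 12 at 100 µM and 26 in the mean of levels. Leaving out each replicate number in turn gave 0 to 8 at 100 µM (8 without replicate 3), 0 to 1104 at 11.1 µM (1104 without replicate 3), 0 to 2 in the mean of levels and 0 to 14 for 100 against 11.1 µM. Against the other compounds, leaving out dishes of 100 µM gave 0 to 40 (40 without dish 2). Settings without dish 3 at 100 µM were chosen after seeing the data. They gave 2 at 100 µM and 4 in the mean of levels, 1 and 6 after quantile normalization, and, with the pooled spread, 14 at 100 µM, 26 at 11.1 µM, 14 in the mean of levels and 4 for 100 against 11.1 µM. The cause was not tested. The fit with no replicate block, with a replicate block across levels, without dim probe sets, with a variance trend, with each level alone and without dishes holding a low-median array gave 0 calls in each comparison run. A fit with a weight per dish did not converge and is not given. No named probe set turned its direction under an alternative: of the recomputed values 128 kept their side of the threshold and 45 passed it only under the alternative.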
